A study of Callithrix jacchus with 4 samples.

Results

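*IDO1*, *WARS*, *CXCL10* and *IL7* are 4 genes among the 32323 listed for the injured cohort of a single-nuclei RNA sequencing (snRNAseq) study of marmoset primary visual cortex (V1). They were chosen by their measured levels across cell types and their detection in the same astrocyte nuclei, so the levels, shares of nuclei and co-detection given here are a description and were not tested. The injured cohort comprised adult marmosets 7 days after injection of endothelin-1, a peptide that constricts vessels and gives a focal ischemic stroke. Injured replicates 1, 2 and 3 were the V1 operculum of animals F1619, F1565 and F1711, with 1 library each, and the control was uninjured V1 from 3 adult marmosets pooled in 1 library. Only 3 of the genes, *IDO1*, *WARS* and *IL7*, are among the 16383 genes listed for the control, since *CXCL10* is not listed there.

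*CXCL10* and *IL7* encode immune signals, and the enzymes encoded by *IDO1* and *WARS* share a substrate. *IDO1* encodes indoleamine 2,3-dioxygenase 1, which opens the ring of tryptophan and starts its conversion to kynurenine. *WARS* encodes the cytosolic tryptophanyl-tRNA synthetase, which loads tryptophan onto its tRNA for protein synthesis. *CXCL10* encodes a chemokine that attracts lymphocytes through the receptor CXCR3, and *IL7* encodes a cytokine that keeps lymphocytes alive through a receptor made of IL7R and IL2RG. Interferons are well known inducers of *IDO1*, *WARS* and *CXCL10* in many cell types, with interferon-gamma acting through kinases that include JAK2 and raising IRF1.

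The injured libraries held 7500, 12527 and 9510 nuclei with medians of 4504.5, 3531 and 4229.5 unique molecular identifiers (UMIs) per nucleus, and the control library held 8610 nuclei with a median of 2117. The cell types are those the authors deposited, namely astrocytes, microglia, endothelial cells (Endo), oligodendrocyte precursor cells (OPC), oligodendrocytes, excitatory neurons (ExN) and inhibitory neurons (InN). Of the 33 listed marker genes of these types, 32 were highest in their own type within each injured library, though not the same 32 in all of them, and 31 of 32 in the control. Microglia also held lymphocyte transcripts, with a UMI of *CD3E*, *CD3D* or *CD2* in 728, 363 and 515 of their nuclei in the injured libraries. Among the 29537 injured nuclei, 60 cell barcodes occurred in more than 1 library. A set of 456 genes with 88709 control UMIs had no UMI in any injured nucleus, *ATF4* among them, so the gene tables of the cohorts were not equivalent and a gene at 0 in one of them was read with caution.

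*IDO1* was detected in every annotated cell type of injured V1, and its levels in glia and endothelial cells lay above those of neurons in the same library, although OPC of replicate 3 had no UMI left once each nucleus was thinned at random to 1000 UMIs. In astrocytes its level was 158, 554 and 65.5 CPM (counts of its UMIs scaled by the total of all UMIs in the library and cell type, to parts per 1000000) in injured replicates 1, 2 and 3, against 5.78 CPM, or 5 UMIs, in the control. In microglia the levels were 85.7, 681 and 64.6 CPM, with no UMI in 129 control nuclei. That count allows up to 2.33% of nuclei with a UMI at their median depth of 793 UMIs and does not limit the share that expresses the gene. Replicate 2 stood far above the others in both cell types, and all 3 injured astrocyte values lay above the control value. Endothelial cells (39.5, 187 and 77.1 CPM), OPC (84.4, 698 and 5.33) and oligodendrocytes (51.8, 232 and 25.6) overlapped with astrocytes and with each other. Excitatory neurons had 6.85, 17.5 and 3.60 CPM and inhibitory neurons 6.0, 24.2 and 2.97 CPM. In the order of levels by the mean of log2 CPM, oligodendrocytes and excitatory neurons were the only neighbors whose ranges did not overlap, with a difference of 3.16 ± 0.49 on the log2 scale (SD, n = 3 animals).

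*WARS* separated non-neuronal cells from neurons more evenly across animals. Astrocytes had 609, 1534 and 340 CPM of *WARS*, against 28.9 CPM in the control, and were first in the order of cell types. OPC followed with 283, 1476 and 187 CPM, although their range overlapped with that of astrocytes. Astrocytes were above OPC in 3 of 3 animals, by 0.67 ± 0.55 on the log2 scale. Endothelial cells (315, 808 and 282 CPM), oligodendrocytes (388, 800 and 151) and microglia (204, 759 and 143) overlapped, and only between microglia and inhibitory neurons (54.0, 131 and 44.6 CPM) did neighbors in the order separate, by 2.04 ± 0.44. Excitatory neurons had 49.9, 88.0 and 43.9 CPM in the injured libraries and 34.9 CPM in the control, so the control value lay below the lowest injured one. In inhibitory neurons the control value of 45.4 CPM lay within the injured range.

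By CPM, *CXCL10* was highest in endothelial cells rather than in astrocytes. Its endothelial levels were 565, 1531 and 422 CPM, followed by microglia with 187, 669 and 121 CPM and astrocytes with 69.1, 299 and 39.4 CPM. The ranges of these cell types overlapped because of replicate 2, but the order was the same in 3 of 3 animals. The endothelial level exceeded the microglial one by 1.53 ± 0.31, and the microglial level the astrocytic one by 1.41 ± 0.23, on the log2 scale (SD, n = 3). OPC (25.9, 215 and 30.1 CPM), oligodendrocytes (21.5, 62.6 and 14.3), inhibitory neurons (16.0, 26.4 and 6.93) and excitatory neurons (11.7, 27.1 and 7.73) came next. Of all *CXCL10* UMIs in a library, endothelial cells held 33.9%, 47.9% and 57.7% and microglia 55.5%, 35.9% and 29.7%, whereas astrocytes held 3.65%, 6.53% and 4.64%. These shares depend on how many nuclei of a type were captured as well as on the level in each.

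*IL7* differed from the other genes in being concentrated in microglia and astrocytes. Microglia had 159, 338 and 139 CPM against 56.2 CPM in the control, the latter from 7 UMIs. Astrocytes had 134, 492 and 98.1 CPM against 10.4 CPM, or 9 UMIs, in the control. The 2 cell types overlapped, and both lay above OPC (14.2, 56.8 and 8.73 CPM), from which astrocytes differed by 3.28 ± 0.19 on the log2 scale. Endothelial cells (13.6, 22.7 and 6.97 CPM), oligodendrocytes (10.5, 11.4 and 7.13), inhibitory neurons (5.20, 13.4 and 7.43) and excitatory neurons (9.36, 10.5 and 5.24) overlapped with each other. The control levels of 10.4 CPM in inhibitory and 11.0 CPM in excitatory neurons were no lower than most injured values there.

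**Figure D1:**
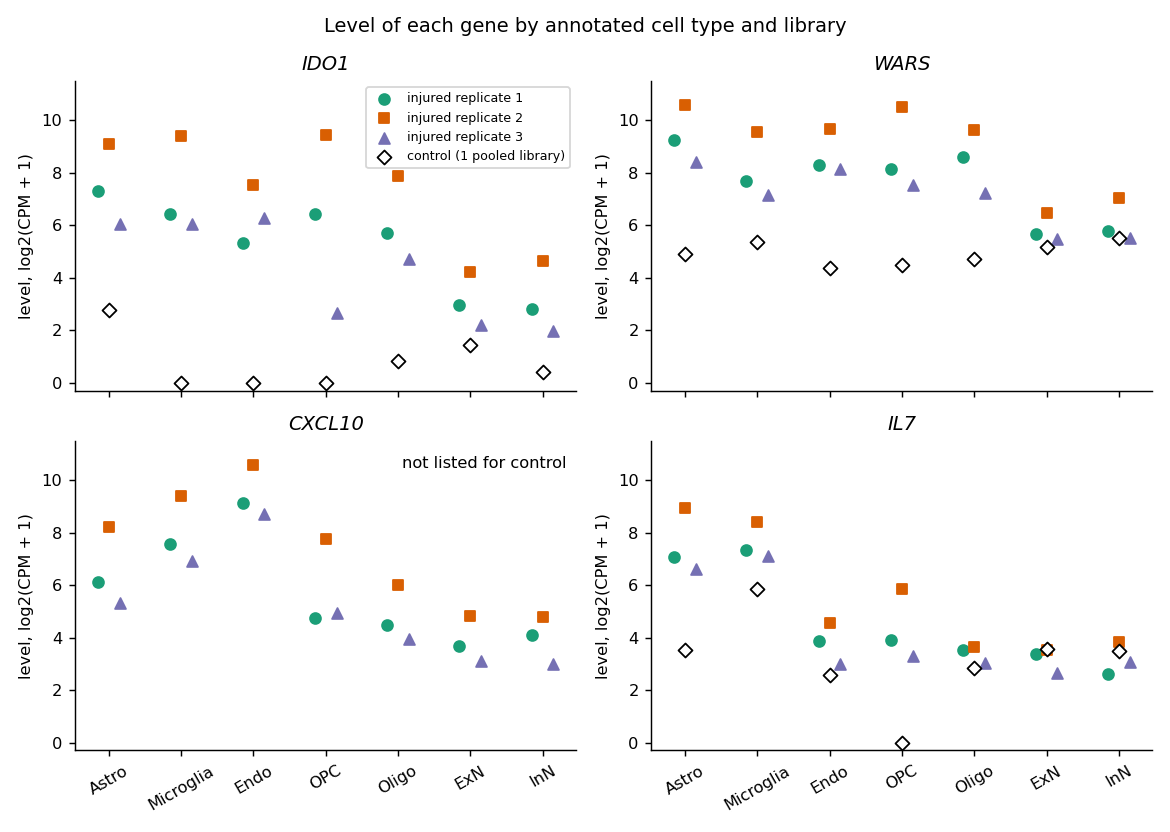
Level of each gene, as log2(CPM + 1), in the 7 annotated cell types, with 1 colored symbol per injured library and an open diamond for the pooled control library. Replicate 2 is the highest of the injured libraries in every cell type and gene, *CXCL10* peaks in endothelial cells, and *IL7* stands out in microglia and astrocytes.

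The animals ranked alike for all 4 genes. Replicate 2 had the highest CPM in 28 of 28 combinations of gene and cell type, and replicate 3 the lowest in 25 of 28. The ratio of replicate 2 to replicate 3 ran from 1.60 to 131, the latter for *IDO1* in OPC, where replicate 3 had 11 UMIs. Across all genes with at least 50 injured UMIs in a cell type, replicate 2 was the highest in 28.4% to 37.4%. In astrocytes the same animal was highest for 13 of 14 genes of the interferon-gamma list, 13 of 14 of the type I interferon list and 7 of 7 of the nuclear factor kappa B list, but for 6 of 18 aminoacyl-tRNA synthetases and 0 of 6 reactive astrocyte genes with at least 50 UMIs. Replicate 2 also had the lowest median depth, and the part of sampling, lesion or library in its position was not tested.

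At the level of single nuclei the genes were unevenly spread among astrocytes. Of 402, 919 and 786 injured astrocyte nuclei in replicates 1, 2 and 3, a UMI of *IDO1* was found in 16.7%, 25.6% and 5.85%, against 0.842% of 594 control nuclei. The corresponding shares were 55.0%, 74.0% and 44.0% against 3.70% for *WARS*, and 13.2%, 20.0% and 9.80% against 1.52% for *IL7*. *CXCL10* was found in 11.2%, 22.4% and 8.78% of injured astrocytes. The exact 95% binomial interval of the *IDO1* share in replicate 2 was 22.8% to 28.5%, and such intervals cover counting error only. The injured astrocyte nuclei were deeper (medians of 5279.5, 2903 and 4666.5 UMIs) than the control ones (1183), so shares were also computed after thinning each nucleus to 1000 UMIs. Shallower nuclei were left out, which kept 398, 896 and 777 injured but only 362 of 594 control astrocytes. At equal depth *IDO1* was found in 6.78%, 18.8% and 2.70% of injured and 1.10% of control astrocytes, and *WARS* in 30.7%, 55.7% and 19.0% against 3.59%. For *IL7* the thinned shares were 5.78%, 13.7% and 3.47% against 1.38%. All injured values stayed above the control value for the 3 genes.

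Excitatory neurons gave the level reached where these genes are not known for high expression. Their thinned shares were 0.701%, 1.74% and 0.434% for *IDO1*, 1.40%, 2.52% and 0.767% for *CXCL10* and 1.08%, 0.728% and 0.601% for *IL7*, all below the astrocyte share of the same library. For *WARS* they were 5.39%, 8.50% and 4.4%, against 3.09% of control excitatory neurons. The *IL7* shares of injured endothelial cells (1.29%, 1.39% and 0.818%) were close to those of excitatory neurons, and UMIs from free RNA in the droplets were not separated from expression at that level.

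UMIs were concentrated to a degree that differed between genes and cell types. In astrocytes, 10, 62 and 9 nuclei with at least 10 *IDO1* UMIs held 56.6%, 66.4% and 63.7% of the astrocytic *IDO1* UMIs of the library. For *IL7*, 9, 48 and 9 such astrocytes held 67.5%, 71.9% and 59.3%, whereas in microglia nuclei of that kind held 8.22%, 18.6% and 1.98% of the *IL7* UMIs. *IL7* was therefore spread over many microglia (30.5%, 35.5% and 26.4% of nuclei with a UMI) and concentrated in few astrocytes. *CXCL10* in endothelial cells was more concentrated, with 33, 176 and 49 nuclei of at least 10 UMIs holding 79.7%, 86.5% and 84.4%, while in astrocytes such nuclei held 51.4%, 56.1% and 27.2% of its UMIs. A single endothelial nucleus had up to 111, 189 and 139 *CXCL10* UMIs. For *WARS*, 60.9%, 55.8% and 43.6% of the astrocytic UMIs lay in 46, 161 and 30 nuclei with at least 10, and in microglia such nuclei held for *IDO1* 42.1%, 42.7% and 47.1%.

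Astrocytes and microglia had the largest shares of nuclei with several of the genes. In astrocytes 24.9%, 37.4% and 13.2% of nuclei had UMIs of at least 2 of the 4 genes, and in microglia 26.5%, 57.3% and 16.9%. Endothelial cells (12.4%, 29.9% and 7.58%) and OPC (12%, 33.7% and 5.24%) were lower in each library, and excitatory neurons reached 5.48%, 10.9% and 2.19% despite being the deepest nuclei. These shares are from whole counts, and endothelial nuclei were shallower than astrocytes. Where none of the genes was found, their medians were 1362, 1470 and 1530 UMIs against 4480.5, 2192 and 3969 in astrocytes. All 4 genes were detected together in 4, 65 and 7 astrocytes, 76 of 2107 in all. In microglia this was seen in 45, 279 and 22 nuclei, 346 of 7733 in all. Endothelial cells had 1, 9 and 0 such nuclei (10 of 4444) and OPC 0, 15 and 1 (16 of 1136), so most were from replicate 2. There were 2 of 9436 in excitatory neurons and 0 of 2462 in oligodendrocytes, the last allowing up to 0.122% of nuclei with UMIs of all 4.

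**Figure D2:**
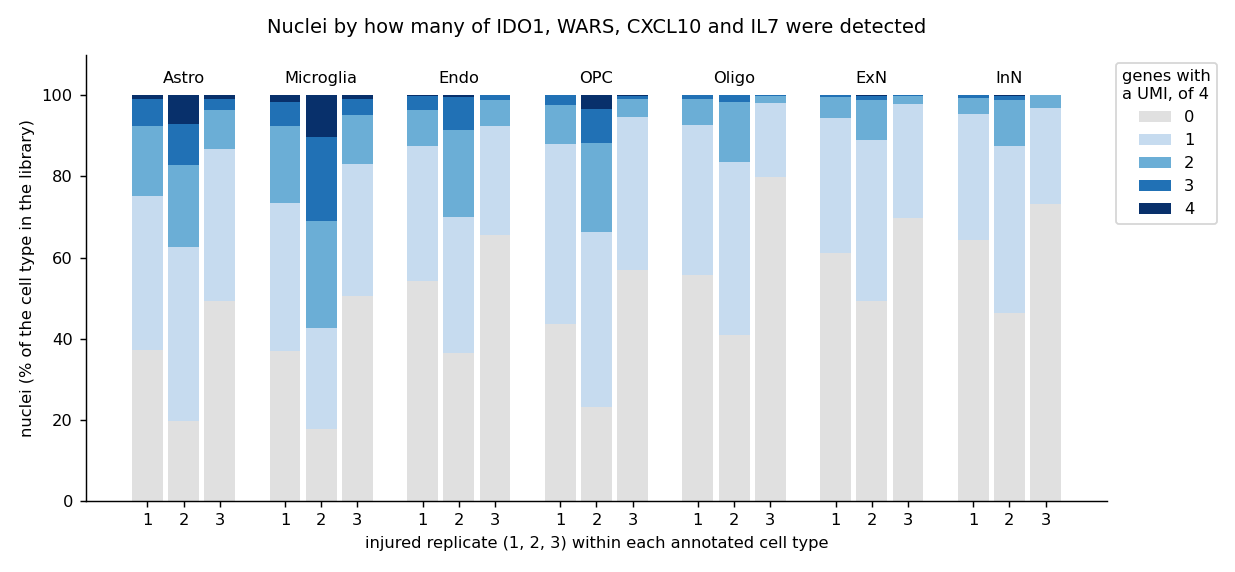
Share of nuclei, in percent of the annotated cell type in each injured library, by how many of the 4 genes had a UMI (light gray for none, darkest blue for all 4). The dark part of the bars is largest in microglia and astrocytes of replicate 2, where 57.3% and 37.4% of nuclei had at least 2 of the genes.

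Deeper nuclei hold more genes, so each pair was set against the number of nuclei expected from the separate shares of its genes multiplied within 5 equal groups of astrocytes by UMI depth. *IDO1* and *IL7* were found together in 18, 114 and 13 astrocytes, where 10.2, 62.2 and 6.06 were expected. *IDO1* and *CXCL10* were found together in 15, 95 and 16, with 8.03, 67.1 and 5.67 expected. *IDO1* and *WARS* coincided in 54, 214 and 31 astrocytes against 39.0, 193 and 25.0, so that 80.6%, 91.1% and 67.4% of *IDO1*+ astrocytes also had *WARS*, compared with 49.9%, 68.1% and 42.6% of *IDO1*- astrocytes. Over 6 pairs and 3 libraries the observed number was above the expected one in 18 of 18 cases, by a ratio of 1.08 to 2.82 with a median of 1.40. The excess was not particular to astrocytes, since microglia showed it in 18 of 18 cases (1.03 to 2.91), and endothelial cells and OPC in 15 of 18 each. With 10 groups of nuclei by depth in place of 5 the counts of cases were unchanged in these 4 cell types.

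**Figure D3:**
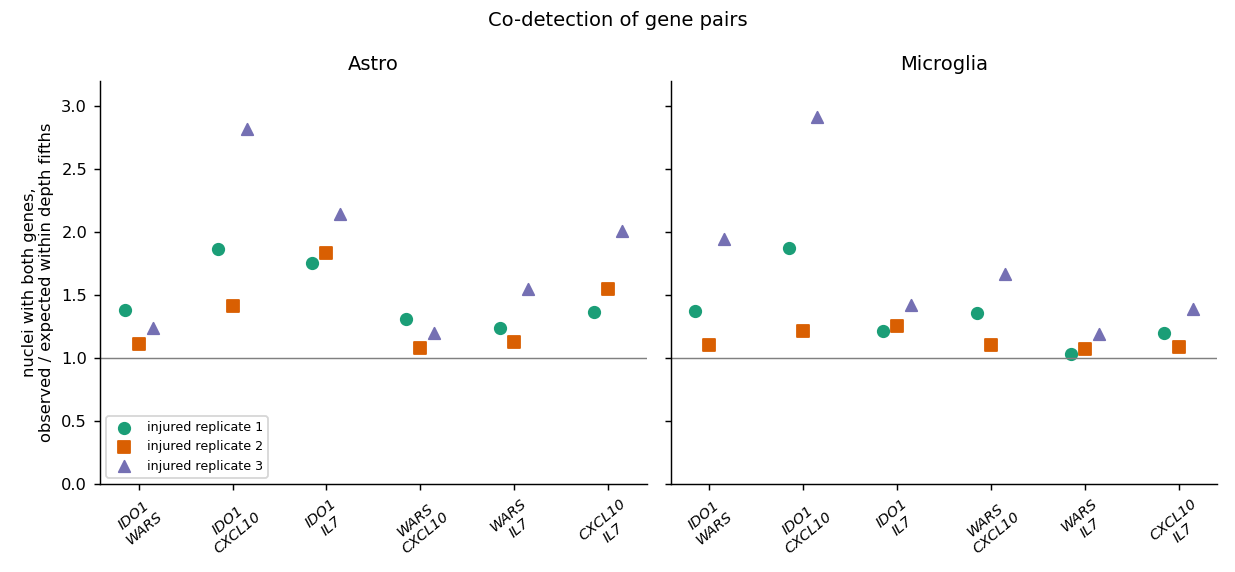
Ratio of the observed number of nuclei with both genes of a pair to the number expected within 5 groups of nuclei by UMI depth, for astrocytes and microglia, with 1 symbol per injured library. All points lie above the line at 1, between 1.08 and 2.82 in astrocytes and between 1.03 and 2.91 in microglia.

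The injured and control cohorts were compared next, on UMIs summed per library and cell type. Summed counts cannot tell a larger share of expressing nuclei from more RNA per nucleus. Cohort and injury cannot be told apart from nuclei isolation, sequencing facility and nuclei filtering, which also differed between the cohorts, and the spread of the single control library was assumed from the injured ones. The genes were chosen with earlier results of this contrast known, so their values in it are no independent evidence. The pooled astrocytic level of *IDO1* was 43.0 times that of control (95% counting interval 18.4 to 132), that of *WARS* 27.6 times (18.7 to 42.6) and that of *IL7* 22.7 times (12 to 49.7). Replicate 2 carried much of these ratios, which without it were 17.1 for *IDO1*, 15.1 for *WARS* and 10.7 for *IL7*, while without replicate 3 that of *IDO1* was 66.9. In edgeR's quasi-likelihood test the log2 fold changes were 5.59 (SE 1.66, adjusted p = 0.0682) for *IDO1*, 4.95 (SE 0.99, adjusted p = 0.0212) for *WARS* and 4.64 (SE 1.27, adjusted p = 0.0545) for *IL7*. Every injured library was higher than control, but none of the 3 genes passed the adjusted p limit of 0.01, while 187 of 12445 genes tested, or 1.50%, were called in astrocytes. *WARS* was called by DESeq2 (log2 fold change 4.94, adjusted p = 0.00199).

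The calls in astrocytes changed with the libraries used. Without replicate 2 the log2 fold changes of *WARS* and *IL7* were smaller, 4.13 and 3.56, yet both were called by edgeR (adjusted p = 2.71e-05 and 5.78e-05). *IDO1* then had 4.33 (edgeR adjusted p = 0.0011) but was found in fewer than 10% of nuclei of either cohort and so was not called. Without replicate 3, *IDO1* (6.03, adjusted p = 0.00584) and *WARS* (5.31, adjusted p = 0.00157) were called by edgeR, and without replicate 1 none was. The number of all astrocyte genes called moved likewise, to 82, 716 and 315 without replicates 1, 2 and 3.

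In the other cell types *WARS* had log2 fold changes of 3.46 to 5.05 outside neurons, against 4.95 in astrocytes, and of 0.89 and 0.92 within neurons. With 1 injured library left out, each of these types was lowest without replicate 2 and highest without replicate 3. Oligodendrocytes ran from 3.53 to 4.64, microglia from 2.34 to 3.87, OPC from 3.55 to 5.47 and endothelial cells from 4.01 to 4.97. Excitatory neurons ran from 0.53 to 1.11 and inhibitory neurons from 0.20 to 1.18. With all injured libraries kept, OPC had the highest value and inhibitory neurons the lowest. The edgeR values were 5.05 in OPC (adjusted p = 0.195), 3.46 in microglia (adjusted p = 0.367), 4.72 in endothelial cells (adjusted p = 0.0163), 4.25 in oligodendrocytes (adjusted p = 0.0436), 0.92 in excitatory neurons (adjusted p = 0.141) and 0.89 in inhibitory neurons (adjusted p = 0.263). *IL7* had -0.28 in excitatory and -0.07 in inhibitory neurons, and 2.17 in microglia (edgeR adjusted p = 0.303). *IDO1* had 2.60 in excitatory (edgeR adjusted p = 0.0991) and 5.16 in inhibitory neurons (edgeR adjusted p = 0.0726), where the control levels of 1.70 and 0.324 CPM, the latter from 1 UMI, lay below every injured library. In excitatory neurons its pooled level was 6.19 times that of control (95% counting interval 4.31 to 9.24), and 2.89 times without replicate 2. At these low neuronal levels UMIs from free RNA in the droplets were not separated from expression. *IDO1* had no control UMI in microglia, endothelial cells and OPC, and so a floor of 3 UMIs in the control sum of the cell type was used. Its pooled level was then at least 9.81-fold higher in microglia, at least 7.52-fold in endothelial cells and at least 14.5-fold in OPC. Without replicate 2 the bounds were 3.21-fold, 4.34-fold and 2.50-fold, and they reached 14.8-fold in microglia without replicate 1 and 23.8-fold in OPC without replicate 3. In the lowest injured library the bound was 2.68-fold in both microglia and endothelial cells, and in OPC replicate 3 was below the floor. Taking the unlisted *CXCL10* as 0 in the control, its level was at least 59.4-fold higher in endothelial cells, 12.2-fold in microglia and 38.0-fold in astrocytes over the pooled libraries, and 28.7-fold, 5.02-fold and 11.4-fold in the lowest library. Without replicate 2 these bounds were 32.2-fold, 6.66-fold and 14.4-fold, and the astrocytic one was 58.2-fold without replicate 3. How the control table came to lack it is not given in the sources used here. No control count of *CXCL10* was measured, so these folds are bounds only if it was at 0 there. Of 21 tests of the 3 listed genes over 7 cell types, edgeR called 0, with 10 at an unadjusted p under 0.05, and DESeq2 called 2, both of *WARS*, in astrocytes and endothelial cells. With 1 injured library left out, how many of these tests edgeR called depended on which one it was. The number of all genes called in those fits is given for astrocytes only, and the shares that follow are from all libraries. Among all genes tested, edgeR called 6.18% in endothelial cells, 0.0697% in OPC, 0.774% in oligodendrocytes, 3.85% in excitatory neurons and 3.41% in inhibitory neurons. In microglia it called 0%, with 2857 of 13470 genes at an unadjusted p under 0.05 and 318 called by DESeq2. At that unadjusted limit edgeR had 3735 of 12445 genes in astrocytes, 4366 of 13205 in endothelial cells and 2279 of 11476 in OPC. It had 3582 of 11631 in oligodendrocytes, 6085 of 15122 in excitatory neurons and 4518 of 12984 in inhibitory neurons. Over all genes DESeq2 called 350 in astrocytes and 684 in endothelial cells.

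The injury effect was also compared between astrocytes and neurons in a fit over all libraries and cell types. These differences draw on the same injured levels by which the genes were chosen, so they are given as a description, and passing the limit is no evidence beyond those levels. The fitted effect on *WARS* was larger in astrocytes than in excitatory neurons by 3.79 on the log2 scale (SE 0.67) and than in inhibitory neurons by 3.96 (SE 0.70). For *IL7* the fitted differences were 4.69 (SE 0.73) and 4.56 (SE 0.91), and for *IDO1* the difference to excitatory neurons, from 5 control UMIs in astrocytes and 29 in neurons, was 2.89 (SE 2.04). Over all 14772 genes edgeR called 0.663% for excitatory and 0.514% for inhibitory neurons, and both *WARS* differences and that of *IL7* to excitatory neurons lay past the same limit. Without replicate 1 neither *WARS* difference did (3.85 and 3.94), and without replicate 3 that to inhibitory neurons did not (4.16). For *WARS* the fitted differences to endothelial cells (0.10, SE 1.50) and OPC (0.06, SE 1.50) were far smaller than their SE. In the separate fits OPC (5.05) lay above astrocytes (4.95). The *WARS* differences were 0.67 (SE 0.84) to oligodendrocytes, 1.55 (SE 1.50) to microglia and 1.69 (SE 0.74) to the mean of the 6 other types. For *IL7* the differences were 2.22 (SE 1.30) to microglia, 2.81 (SE 3.11) to endothelial cells and 3.73 (SE 1.34) to oligodendrocytes. None of these lay past the limit. With no control UMI of *IL7* in OPC, its differences to OPC and to the mean could not be read. The other *IDO1* differences could not be read, because control UMIs were absent in 3 of the cell types and numbered 1 in 2 others.

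Genes around the members were then examined by their roles, in lists chosen with earlier results of these data known. Within the injured libraries astrocytes were compared with the mean of the other cell types, where edgeR called 32.9% of 14139 genes. Of 100 genes tested over 9 lists, 33 were higher and 13 lower in astrocytes. The enzymes that act on kynurenine differed in where they were highest. *KYNU*, which encodes kynureninase, had 394, 530 and 316 CPM in microglia and 9.81, 12 and 6.79 CPM in astrocytes. *KMO*, encoding kynurenine 3-monooxygenase, had 339, 430 and 257 CPM in microglia against 19.2, 10.6 and 9.13 in astrocytes, and its call as lower in astrocytes was lost without replicate 2 or 3 (-0.53 and -0.59, edgeR adjusted p = 0.0309 and 0.0646). *KYAT3*, encoding a kynurenine aminotransferase, had instead 278, 439 and 217 CPM in astrocytes and was higher there than in the mean of the other types by 1.54 (SE 0.11, edgeR adjusted p = 6.12e-11), although oligodendrocytes (367, 425 and 203 CPM) and OPC (253, 389 and 152 CPM) had similar levels. *AADAT*, encoding another such aminotransferase, had -0.51 and was called lower in astrocytes, a call lost with any library left out. *HAAO*, the next enzyme after *KMO* and *KYNU*, was lower in astrocytes than in that mean (-1.65, edgeR adjusted p = 6.63e-05). So was *AHR*, a receptor for kynurenine (-2.32, edgeR adjusted p = 1.82e-06). Oligodendrocytes were as low in *HAAO*, with a mean log2(CPM + 1) of 1.13 against 1.16 in astrocytes and 5.87 in microglia. *TDO2*, which encodes the liver enzyme for the same step as *IDO1*, did not exceed 3.08 CPM in any injured cell type and library. Of 16 tested genes of this list 2 were higher and 5 lower in astrocytes, and of all genes 15.9% were higher and 17% lower.

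The partners of *CXCL10* and *IL7* were spread over several cell types. *CXCL11*, a chemokine of the same receptor, had 109, 494 and 38.7 CPM in endothelial cells and 32.7, 146 and 16.4 CPM in astrocytes, with the animals in the same order as for *CXCL10*. *CXCR3* itself was scarce, with 2.07, 1.81 and 1.88 CPM in microglia. It was found in 1.51%, 1.65% and 1.17% of the microglia with a UMI of *CD3E*, *CD3D* or *CD2*. In the other microglia the *CXCR3* shares were 0.668%, 0.301% and 0.470%. *DPP4*, encoding a peptidase that trims the CXCL10 protein, had 201, 197 and 184 CPM in microglia. It was lower in astrocytes than in the mean of the other types (-2.18, edgeR adjusted p = 5.18e-10). OPC and oligodendrocytes were about as low, with a mean log2(CPM + 1) of 3.07 and 3.18 against 2.93 in astrocytes. The *IL7* receptor genes *IL7R* (7.13, 8.91 and 3.25 CPM) and *IL2RG* (41.1, 60.7 and 44.9 CPM) were also highest in microglia in 2 and 3 of the 3 libraries. *IL7R* was found in 4.40%, 7.16% and 1.55% of the microglia with those lymphocyte UMIs, and in 1.34%, 0.988% and 0.822% of the others. *STAT5A*, which transmits the *IL7* signal, was higher in astrocytes than in the mean of the other types by 1.56 (edgeR adjusted p = 2.80e-08), although microglia (173, 215 and 184 CPM) lay above astrocytes (62.6, 112 and 61.6 CPM). *IFNG*, encoding interferon-gamma, had 9.79, 60.6 and 3.75 CPM in microglia, with the same order of animals as the 4 genes, and 88.7%, 84.3% and 88.2% of each library's *IFNG* UMIs lay there. These rest on few nuclei, with 133, 516 and 34 *IFNG* UMIs in the whole libraries. *IFNG* was found in 2.61%, 6.61% and 0.388% of the microglia with a UMI of *CD3E*, *CD3D* or *CD2* (19, 24 and 2 nuclei). In the others it was found in 0.811%, 1.50% and 0.176% (17, 35 and 3 nuclei). The shares split by these lymphocyte UMIs were not adjusted for depth.

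**Figure D4:**
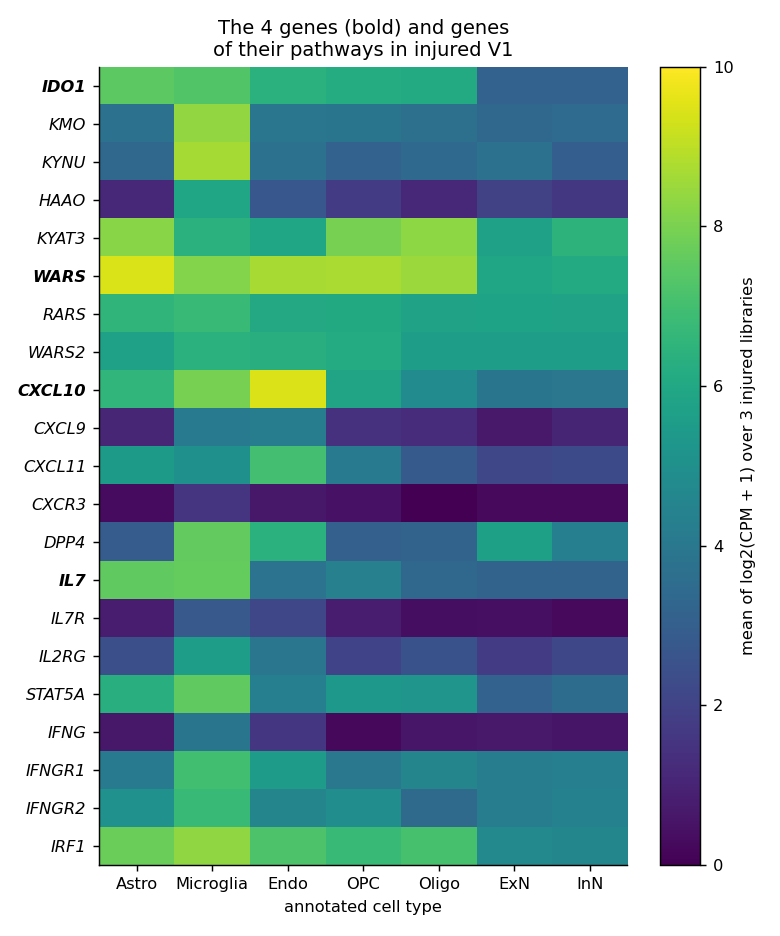
Mean of log2(CPM + 1) over the 3 injured libraries for the 4 genes (bold) and genes of their pathways in each annotated cell type. Colors compare cell types within a row, since CPM is not divided by gene length, and show *KMO*, *KYNU* and *HAAO* in microglia, *KYAT3* in astrocytes, OPC and oligodendrocytes, and *CXCL10* with *CXCL11* in endothelial cells.

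The genes whose pattern over the 21 sums of injured libraries and cell types was most like that of each member were listed among 13746 genes by Pearson correlation of log2(CPM + 1). The points share libraries and cell types, so the values are descriptive. For *IDO1* these were *RASAL1*, *WARS*, *APOL6*, *IRF1* and *RBCK1* (r = 0.918 to 0.930). For *WARS* they were *RBCK1*, *APOL6*, *IFIT1*, *TMX1* and *IDO1* (0.930 to 0.954), so *IDO1* and *WARS* appeared in each other's list. *CXCL10* was closest to *C1S*, *SOD2*, ENSCJAG00000001988, *SAMD9L* and *CAJA-E* (0.952 to 0.960), and *IL7* to *STARD5*, *RARS*, *RAB20*, *GNA13* and *NUDCD1* (0.921 to 0.953). *RARS* is another cytosolic tRNA synthetase, for arginine. Between the members r was 0.930 for *IDO1* with *WARS*, 0.749 for *IDO1* with *CXCL10*, 0.720 for *IDO1* with *IL7* and 0.547 for *CXCL10* with *IL7*.

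Finally, injured astrocyte nuclei with a UMI of at least 2 of the 4 genes (100, 344 and 104 nuclei) were compared with those that had none (150, 181 and 387) by edgeR on sums per library, with library as a block and the 4 genes left out. The 152, 394 and 295 nuclei with exactly 1 were left out, so the classes are the ends of a range and not cell types. The nuclei with the genes were deeper, with medians of 6497, 3834.5 and 6133.5 UMIs against 4480.5, 2192 and 3969. Of 8349 genes tested, 768 or 9.20% were called, 394 higher and 374 lower, and each moved the same way in every library. A call over 3 libraries as blocks favors such genes, so this is no separate result. After thinning each nucleus to 1000 UMIs before classing, 697 of these genes could be tested, of which 696 kept their direction and 296 were called in that direction. The thinned counts are drawn from the same nuclei and are no replication.

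The largest rises included a chemokine, a pentraxin and a transcription factor. *CXCL11* had 98.9, 290 and 84.3 CPM in astrocytes with the genes and 4.29, 12.3 and 3.12 CPM in those without, in replicates 1, 2 and 3, a log2 fold change of 4.57 (SE 0.27, edgeR adjusted p = 8.69e-08). The other 4 of the 5 largest rises were *PTX3*, encoding a secreted pentraxin (4.02, SE 0.29), *ATF3*, encoding a stress-response transcription factor (3.84, SE 0.40), ENSCJAG00000001988 (3.44, SE 0.22) and *SLC39A8*, encoding a zinc transporter (3.37, SE 0.21). Each was chosen as a called gene that rose in every library, so the lack of overlap between its classes is no separate result. *RTN4*, the gene of NogoA, had 1041, 1070 and 879 CPM with the genes and 465, 402 and 477 without, and rose by 1.11 (SE 0.13, edgeR adjusted p = 3.14e-05).

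The falls included transporters, an enzyme and a matrix protein. *SLC39A12*, encoding another zinc transporter, had 31.9, 26.5 and 46.9 CPM with the genes and 154, 223 and 206 without (log2 fold change -2.54, SE 0.21, edgeR adjusted p = 1.66e-06). *C2orf72* (-2.57), *AIFM3* (-2.28), *SDS*, encoding serine dehydratase (-2.15), and *BCAN*, encoding the matrix proteoglycan brevican (-2.10), were the others. In thinned counts *C2orf72* had -3.01 (edgeR adjusted p = 0.0145), *SDS* -2.96 (edgeR adjusted p = 0.00618) and *BCAN* -2.26 (edgeR adjusted p = 0.00699), none of which was called, the last 2 because fewer than 10% of nuclei of either class had a UMI. Of the 6 astrocyte markers, *SLC1A2*, encoding the main glutamate transporter (-1.88), *NDRG2* (-1.64) and *ALDH1L1* (-0.68) fell, while *SLC1A3*, *GFAP* and *AQP4* were not called. The *ALDH1L1* call was lost without replicate 3 (-0.69, edgeR adjusted p = 0.0143). Summed over the 6 markers, the level was 5139, 5690 and 6434 CPM with the genes and 9928, 14040 and 10850 CPM without.

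By list, 26 of 68 tested genes rose and 0 fell, while of all genes tested 4.72% were called higher and 4.48% lower. In thinned counts 14 of 48 rose and 0 fell, and of the 768 genes called in whole counts 296 kept their call. The share called of all genes tested in thinned counts is not given here, so the 14 are not set against it. On the interferon-gamma side 8 of 12 rose, with a median log2 fold change of 1.40 against -0.01 over all genes. They included *JAK2* (2.24), *IRF1* (2.62), *CIITA*, the regulator of MHC class II genes (2.55), and *CD274*, encoding PD-L1 (3.15), and *IRF1* had 403, 502 and 365 CPM with the genes and 75.8, 68.7 and 56.1 without. On the type I interferon side 7 of 13 rose (median 1.20), among them the antiviral genes *RSAD2* (3.14), *MX2* (1.61) and *OAS2* (1.37). On the nuclear factor kappa B side 3 of 6 rose, *NFKB1* (1.08) and the inhibitors *NFKBIA* (1.04) and *TNFAIP3* (3.24). Thinning ended the calls of *NFKB1* and *NFKBIA* (1.03 and 1.17, edgeR adjusted p = 0.0375 and 0.0207), and *TNFAIP3* was not called without replicate 3 (2.87, edgeR adjusted p = 0.0112) or by DESeq2 (adjusted p = 0.0109). Of 6 reactive astrocyte genes *VIM* (1.16), *OSMR* (1.78) and *CD44* (2.28) rose, and *GFAP* had 0.12. *VIM* was not called in thinned counts (0.91, edgeR adjusted p = 0.0943) or by DESeq2 (adjusted p = 0.0602), nor *CD44* by DESeq2 (adjusted p = 0.0143).

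Of the genes of tryptophan use 1 of 5 was called and of those of tRNA charging 1 of 17, beside 9.20% of all genes tested. Among 17 aminoacyl-tRNA synthetases tested, with a median of 0.16, *RARS* rose by 1.32 (SE 0.18, edgeR adjusted p = 0.000105), with 164, 152 and 123 CPM against 51.5, 63.8 and 54.8, but was not called in thinned counts (0.96, edgeR adjusted p = 0.0717). *WARS2*, the mitochondrial counterpart of *WARS*, had -0.01. Of 5 tryptophan pathway genes *KYAT3* rose by 1.05, which thinning also took below the limit (0.79, edgeR adjusted p = 0.0315). Of 3 amino acid stress genes *PSAT1*, encoding an enzyme of serine synthesis, had -1.91 (edgeR adjusted p = 0.00109) but was found in fewer than 10% of nuclei of either class and so was not called, and *EIF2AK4*, encoding the kinase GCN2 that senses uncharged tRNA, had -0.16. From the *IL7* list *IL15*, encoding a related cytokine, rose by 1.88, and *STAT5A* rose by 0.92. *STAT5A* was not called without replicate 2 (0.73, edgeR adjusted p = 0.0680) or without replicate 3 (0.81, edgeR adjusted p = 0.0971), and thinning ended both calls (*IL15* 1.17, *STAT5A* 1.34, edgeR adjusted p = 0.177 and 0.0137).

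Other cell types' markers were followed in the same classes. No microglia marker passed, and the 5 listed summed to 283, 220 and 252 CPM with the genes and 313, 324 and 214 CPM without. The 7 listed leukocyte markers summed to 25.5, 30.8 and 26.5 CPM with the genes and 45.7, 34.4 and 14.3 without. Endothelial markers summed to 277, 484 and 316 CPM against 249, 324 and 284, and none passed. The neuronal markers *SYT1* and *RBFOX3* had -0.68 and -0.89 and were called lower. The *SYT1* call was lost in thinned counts (-0.11, edgeR adjusted p = 0.873), with DESeq2 and with any library left out, and the *RBFOX3* call without replicate 2 (-0.58, edgeR adjusted p = 0.0467).

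**Figure D5:**
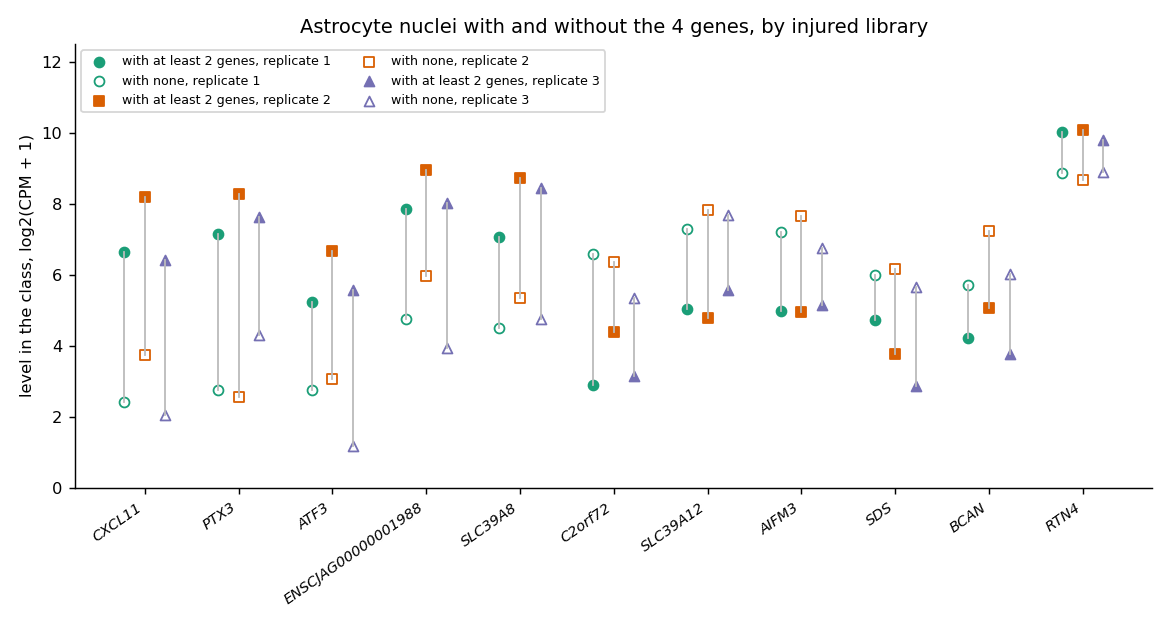
Level, as log2(CPM + 1), of the 5 genes that rose most, the 5 that fell most and *RTN4* in injured astrocyte nuclei with UMIs of at least 2 of the 4 genes (filled) and with none (open), with a gray line joining the classes of each injured library. The filled and open symbols are separated in the same direction in all 3 libraries for each gene. For the 5 rises and 5 falls this was part of how they were chosen.

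The same lists in the comparison of injured with control astrocytes had 10 of 86 tested genes higher and 0 lower, beside 1.50% called over all genes. These included *JAK2* and *IRF1* on the interferon-gamma side (median of 12 genes 4.24), *MX1*, *IFIT1*, *IFIT3* and *IFI6* on the type I side (median of 14 genes 4.62) and *GFAP*, *VIM* and *CD44* of the reactive astrocyte list (median of 8 genes 3.55). *IRF1*, *MX1* and *GFAP* were not called without replicate 1 (5.22, 7.66 and 1.89, edgeR adjusted p = 0.0115, 0.0119 and 0.0129). These 3 and *JAK2* were not called in nuclei with at most 2500 genes (*JAK2* 2.52, edgeR adjusted p = 0.0353). The synthetases (18 genes), the tryptophan list (12 genes) and the amino acid stress list (6 genes) had medians of 0.10, 0.06 and -0.32, beside 0.05 over all genes, and no called member. Single genes of these 3 lists varied around the medians. *KYNU* (3.08, SE 0.99), *KYAT3* (1.81, SE 0.41), *VARS* (1.67, SE 0.44) and *TRIB3* (7.17, SE 2.43) were among the higher ones. *ACMSD* (-1.06, SE 0.92), *KARS* (-0.77, SE 0.47) and *ASNS* (-1.67, SE 0.82) were among the lower ones, and *ATF4* had no injured UMI. Markers of other cell types moved in both directions in injured astrocytes. Of 4 microglia markers tested *CD74*, a gene of antigen presentation, was called (log2 fold change 6.92, edgeR adjusted p = 0.00255), and the listed ones summed to 302, 258 and 202 CPM against 90.2 CPM in the control, while *P2RY12*, which defines resting microglia, had -0.07. Of 3 endothelial markers *IGFBP7* was called (2.09, edgeR adjusted p = 0.00886), and they summed to 285, 418 and 339 CPM against 113. Leukocyte markers summed to 34.1, 30.1 and 20.6 CPM against 15.0, with none of 3 tested called. Inhibitory neuron markers summed to 24.3, 36.6 and 35.2 CPM against 17.3. Sums were lower for markers of excitatory neurons (1072, 1056 and 977 CPM against 2093) and oligodendrocytes (251, 249 and 216 against 326). The summed astrocyte markers were also lower (7652, 8765 and 9194 against 14713), but single ones moved both ways. *SLC1A2* (log2 fold change -1.45) and *ALDH1L1* (-0.15) were lower. *AQP4* (2.36), *GFAP* (1.90), *SLC1A3* (1.03) and *NDRG2* (0.33) were higher. OPC marker sums lay on both sides (223, 360 and 214 against 307). The microglia marker *GPR34* had -1.37. The sums cover 5 microglia and 7 leukocyte markers in injured libraries but 4 and 5 in the control, and the part of these markers in the values of the 4 genes was not tested.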

How the data were processed

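Nuclei from V1 of 3 injured marmosets and a control library pooled from 3 uninjured marmosets were profiled on a droplet platform. The values used were counts of UMIs for each gene in each nucleus, unnormalized, which the authors made with Cell Ranger 3.1.0 on calJac3 with an Ensembl annotation, together with the library and annotated cell type of each nucleus. The authors removed doublets with Scrublet in injured nuclei and applied a Seurat filter on gene number to the control. No further doublet caller was run and no nucleus was removed.

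UMIs were summed per library and cell type. Genes listed for both cohorts, or in comparisons within the injured libraries all genes listed for these, were tested with edgeR 4.0.16 in R 4.3.3 (filterByExpr, TMM, quasi-likelihood fit and two-sided F test, Benjamini-Hochberg adjusted over all genes tested), with DESeq2 1.42.0 as an alternative. Genes were called at an adjusted p under 0.01 with a natural-log fold change beyond 0.25 in either direction and, except for differences between cell types in injury effect, a UMI in at least 10% of nuclei of either side. Fold changes are given as log2. Comparisons within libraries had library as a block. CPM is UMIs of a gene per 1000000 UMIs of the same sum. Intervals are exact (Clopper-Pearson for shares, and for ratios the Poisson interval of the control count alone) at 95% and cover counting error only. A count of 0 was bounded by 3 UMIs in the same sum.

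The members and all gene lists were chosen with earlier results of these data known. Beside the members and lists, genes named are the 5 most alike each member (at least 200 UMIs over the sums), the 5 largest rises and falls among called astrocyte genes that moved the same way in every library, and *RTN4*. The alternatives were DESeq2, RLE factors, library size without factors, all genes with at least 1 UMI, thinning to 500, 1000 or 1500 UMIs, only nuclei with at most 2500 genes, an adjusted p limit of 0.05, unlisted genes counted as 0, other classes, no library block, 10 depth groups for co-detection, Spearman correlation or a pseudocount of 10 in place of 1 for likeness, and leaving out each injured library. Identifiers without a symbol were matched to a table of gene names. The edgeR fits were also run on simulated counts. Sums, shares and figures were made in Python 3.11.15 (numpy 2.4.6, scipy 1.17.1, pandas 2.3.3, matplotlib 3.10.9). One listed gene is not reported here.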

Additional observations from a re-analysis of the deposited data

Results flagged for a closer look

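In 3 cases the fitted injury effect on a member was past the limit used for all genes in a comparison between astrocytes and a neuronal type. The log2 effect on *WARS* was larger in astrocytes than in excitatory neurons by 3.786 and than in inhibitory neurons by 3.959. That on *IL7* was larger in astrocytes than in excitatory neurons by 4.691. No other difference of *IDO1*, *WARS* or *IL7* between astrocytes and a cell type, or the mean of the 6 others, was past that limit. Against that mean *WARS* had 1.69 (SE 0.74). Of all 14772 genes, edgeR called 0.663% against excitatory and 0.514% against inhibitory neurons. The genes were chosen by their levels across the same injured cell types, so these values are a description and not independent evidence of a difference. Control astrocytes had 25 UMIs of *WARS* and 9 of *IL7*.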

How the results depend on the processing

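The number of genes called in injured against control astrocytes (187) was 350 with DESeq2, 338 without a filter on low counts, 82 in nuclei with at most 2500 genes, 891 at an adjusted p limit of 0.05, and 82 to 716 with 1 injured library left out. Of the 3 listed members, 0 called there became 1 under DESeq2, no low-count filter, thinning to 1000 UMIs and an adjusted p limit of 0.05 (*WARS* in each), and 0 to 2 with 1 library left out. In the other cell types the calls among 18 tests changed with DESeq2 and with the library left out. The number of all genes called there with a library left out is not given. The number of genes whose injury effect in astrocytes differed from the mean of the other cell types (78) was 169 with DESeq2, and 9 to 62 with 1 library left out. Astrocytes with against without the members gave 445 calls with DESeq2, 314 after thinning, 234 without the library block and 401 to 700 with 1 library left out, in place of 768. Over 41 named or listed genes there, 275 of 326 values under alternatives kept their side of the limit, 51 fell below it and 0 reversed. The difference in the *WARS* effect to excitatory neurons lost its call without replicate 1 (3.85), and that to inhibitory neurons without replicates 1 and 3 (3.94 and 4.16). With 1 library left out these differences ran from 3.50 to 4.11 and from 3.82 to 4.16, and that of *IL7* to excitatory neurons, called each time, from 4.06 to 5.15. The *IL7* effect in inhibitory neurons (-0.07) ran from -0.58 to 0.15 with 1 library left out, with a change of sign to 0.15 without replicate 1 and 0.06 without replicate 3. The causes were not tested. Scaling by library size alone moved the median log2 fold change of all astrocyte genes from 0.05 to -0.06, and changed no direction of a member there. Of the 5 genes most like each member, 2 to 4 were shared with Spearman correlation and 3 to 5 with the other pseudocount. No paired analysis was possible because the control is 1 library pooled from 3 other animals. A median of 2117 UMIs per control nucleus and 594 control astrocytes limit what could be detected there, and 1 control library allows no estimate of control spread.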
